A study of Mus musculus with 16 samples.

Results

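The mitochondrial respiratory chain genes were examined in 16 tumors grown in mice. The set held every protein-coding gene with at least 10 counts over the 16 tumors whose GENCODE symbol names a mitochondrially encoded subunit (mt-Nd, mt-Co, mt-Atp, mt-Cytb) or begins with Nduf (a, b, c, s and v series), Uqcr, Cox4 to Cox8 or Atp5, or is Sdha, Sdhb, Sdhc or Sdhd, which gave 105 of the 16817 genes tested and of the 22298 genes listed. Of these 105 members, 13 lie in the mitochondrial genome and 92 in the nuclear genome. Complex I had 51 members (7 mitochondrial, 44 nuclear, of which 8 are Ndufaf assembly factors), complex II 4, complex III 9 (1 mitochondrial), complex IV 22 (3 mitochondrial) and complex V, the ATP synthase, 19 (2 mitochondrial). The cytochrome oxidase subunit Ndufa4 and its paralog Ndufa4l2 were placed with complex IV despite their symbols. Of 108 gene entries with a matching symbol, 3 were left out: Cox8c and a second Atp5o entry had 0 counts, and Ndufb1-ps is not annotated as protein coding.

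All tumors grew from MFC, a mouse forestomach carcinoma cell line, in wild-type mice of the 615 line, which is the inbred host of these cells. Per the methods of the study the mice were sex-matched and 6 weeks old, and received 500000 MFC cells intraperitoneally. The 8 control tumors came from mice given PBS and the 8 IL-33 tumors from mice given the cytokine IL-33 at 20 μg/kg, both intraperitoneally every 2 days. The methods name fewer animals per group for this model than there are tumors here, although a survival experiment of the study used more. The labels do not tie tumors to mice, so tumors of a group may share an animal and the p-values below may be too small. Each library was made from poly(A)-selected RNA of whole tumor tissue, so that fewer cells of a type and less RNA per cell cannot be told apart.

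The respiratory chain sits in the inner mitochondrial membrane. Complexes I and II pass electrons from NADH and succinate to ubiquinone, complex III passes them to cytochrome c, and complex IV reduces oxygen, while protons pumped by complexes I, III and IV drive ATP synthesis by complex V. Mitochondrial DNA encodes 13 subunits at the core of complexes I, III, IV and V. They are transcribed as long polycistronic RNAs that are cut into mRNAs, most of them with short poly(A) tails. The other subunits, and all of complex II, are encoded in the nucleus and imported.

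The mitochondrial mRNAs have compact ends. They are shown here because reads in bases that 2 genes share can be counted for either or neither, and because some stop codons are completed only by the tail. mt-Atp8 (mitochondrial genome, plus strand, chrM:7766-7969, 204 bases) and mt-Nd4l (chrM:9877-10173, 297 bases) run into the next gene, and the capitals mark the 43 bases shared with mt-Atp6 and the 7 bases shared with mt-Nd4. In the last 28 bases of mt-Co3 (chrM:9363-9390), mt-Nd4 (chrM:11517-11544) and mt-Cytb (chrM:15261-15288) the capital marks the final T, to which polyadenylation adds the rest of the stop codon. The sequences are those of GENCODE M21 on GRCm38.
mt-Atp8: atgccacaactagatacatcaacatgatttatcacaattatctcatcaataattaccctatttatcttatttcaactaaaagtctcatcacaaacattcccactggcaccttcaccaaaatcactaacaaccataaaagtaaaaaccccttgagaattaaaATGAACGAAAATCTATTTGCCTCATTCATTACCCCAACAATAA
mt-Nd4l: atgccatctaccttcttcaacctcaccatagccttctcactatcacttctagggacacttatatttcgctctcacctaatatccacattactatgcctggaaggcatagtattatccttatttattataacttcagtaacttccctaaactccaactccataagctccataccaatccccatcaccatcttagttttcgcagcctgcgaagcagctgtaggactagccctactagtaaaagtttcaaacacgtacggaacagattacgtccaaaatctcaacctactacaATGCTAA
mt-Co3 end: tacgtctccatttattgatgaggatctT
mt-Nd4 end: ccaaaactaattacaggcctgacaataT
mt-Cytb end: gaagacaaaatactaaaattatatccaT

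mt-Nd6 (chrM:13552-14070) is the single member on the minus strand of the mitochondrial genome and shares 14 bases with mt-Nd5. Whether the counting used strand is not given in the sources used here, so reads of mt-Nd6 and of the RNA opposite to it cannot be told apart.

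The libraries held 14139268 to 24290794 counts in control tumors and 16569613 to 24288893 in IL-33 tumors. The 4 libraries named next stood apart, and each touches the members. Control 4 had a TMM scaling factor of 0.64, the highest red cell gene sum (12804 CPM, counts per 1e6 counts, against at most 2845 in the others) and an excess of short transcripts described below. IL-33 7 had a TMM factor of 1.24 and alone held ovary genes (summed 1626 CPM, against at most 8.64 in the others) and oviduct and uterus genes (1295 CPM, against at most 3.37). It was also the highest tumor for white fat genes (2683 CPM, against at most 300.4), fibroblast genes (14521 CPM, against at most 6945) and the sum of the liver list (376.5 CPM, against at most 39.9). Alb, Fgb and Apoa2 of the liver list were highest in control 2 instead (22.9, 3.37 and 0.858 CPM). The liver sum of IL-33 7 thus rests on other genes of that list. IL-33 3 and control 7 shared the excess of short transcripts of control 4 at a smaller size. The epithelial markers that define a carcinoma were partly absent: Epcam was at most 2.40 CPM and Cdh1 at most 3.01 CPM outside IL-33 7, whereas Krt8 ranged from 180.8 to 975.3 CPM over the 16 tumors.

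In 15 of the 16 tumors the 13 mitochondrial mRNAs together outnumbered the 92 nuclear members, and the proportion varied more between single tumors than between the groups. Mitochondrial mRNAs took 2.74, 2.24, 2.67, 1.51, 2.94, 2.96, 1.91 and 2.92% of all counts in control tumors 1 to 8, and 3.57, 2.89, 1.98, 2.20, 2.85, 2.97, 2.94 and 2.28% in IL-33 tumors 1 to 8. IL-33 1 was highest and control 4 lowest by total count, although with TMM scaling control 4 (2.37%) lay inside the range of the others, and the groups overlapped over most of their range. Nuclear members took 0.908, 1.02, 0.888, 1.85, 0.961, 0.894, 1.23 and 1.11% in control tumors 1 to 8, and 1.04, 0.940, 1.34, 0.942, 0.945, 0.936, 0.858 and 0.954% in IL-33 tumors 1 to 8. Here control 4 was highest, followed by IL-33 3 and control 7. The 95% Wilson intervals of these shares were at most 0.0176 percentage points wide, which covers counting error only.

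The 3 tumors with the highest nuclear share were the 3 with the lowest mitochondrial share of the total count. Their ratio of mitochondrial to nuclear reads, which does not depend on library size or scaling, was 0.819 in control 4 (log2 ratio -0.29), 1.47 in IL-33 3 (log2 ratio 0.56) and 1.56 in control 7 (log2 ratio 0.64). In the other 13 tumors the log2 ratio lay between 1.13 and 1.78. The group means of the log2 ratio were 1.18 ± 0.69 (SD, n = 8) in control and 1.43 ± 0.41 (SD, n = 8) in IL-33, a difference of 0.26 that is smaller than either SD. Without control 4 the control mean was 1.38 ± 0.38 (SD, n = 7) and the difference was 0.05. The mitochondrial share was 2.49 ± 0.54% in control and 2.71 ± 0.52% in IL-33, and the nuclear share 1.11 ± 0.32% and 0.995 ± 0.149% (SD, n = 8 in each). Without control 4 the control means were 2.63 ± 0.40% and 1.00 ± 0.13% (SD, n = 7). No test was run on these sums over members.

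**Figure D1:**
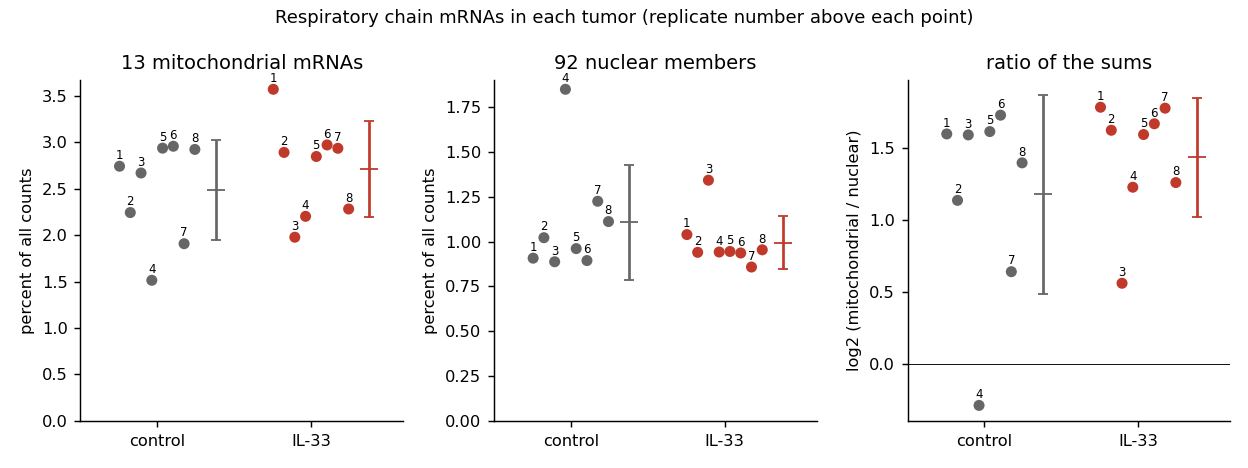
Percent of all counts in the 13 mitochondrial mRNAs (left) and the 92 nuclear members (middle), and the log2 ratio of the sums (right), for each of 8 control (grey) and 8 IL-33 (red) tumors. Numbers are replicates, and bars give the group mean and SD; control 4, with 1.51% and 1.85%, is the single tumor with a log2 ratio below 0.

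Among the mitochondrial mRNAs, mt-Co1 and mt-Co2, which encode the catalytic subunits of complex IV, had the highest median levels per length (4959 and 4580 RPKM, CPM per kilobase). mt-Atp6, the proton channel subunit of complex V, followed at 3968 RPKM and mt-Cytb of complex III at 3011 RPKM. The complex I subunits ranged from 237 RPKM (mt-Nd4l) to 2130 RPKM (mt-Nd2). mt-Atp8 was lowest at 102 RPKM, although its coding sequence lies on the same mRNA as that of mt-Atp6. Both short genes are shorter than the fragment sizes given in the labels, and how reads in shared bases were assigned is not given in the sources used here.

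The composition of the mitochondrial mRNA pool was close in most tumors and distinct in control 4. mt-Nd6 made up 4.16% of the mitochondrial reads in control 4 and 0.513 to 1.39% in the other 15 tumors. mt-Co2 made up 23.8% there against 10.5 to 15.5%, and mt-Nd5 8.50% against 3.24 to 5.24%. In the opposite direction, mt-Cytb made up 6.39% against 9.57 to 13.9%, mt-Nd1 3.47% against 4.20 to 8.30% and mt-Atp8 0.011% against 0.046 to 0.092%. The Wilson intervals of these shares were at most 0.365 percentage points wide. Control 4 lay outside the range of the other 15 tumors for 10 of the 13 mRNAs, above it for 4 and below it for 6, and inside it for mt-Nd2, mt-Co1 and mt-Co3.

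In CPM, mt-Nd6 was at 140.7, 136.6, 154.0, 629.6, 160.2, 155.7, 213.2 and 250.6 in control tumors 1 to 8 and at 277.6, 171.9, 274.2, 150.7, 179.9, 185.7, 279.7 and 149.0 in IL-33 tumors 1 to 8. Control 4 was more than 2 times the next tumor, and the 2 groups otherwise overlapped. mt-Cytb was at 3781, 3077, 3332, 967.1, 3556, 3664, 2304 and 3649 in control tumors 1 to 8 and at 4641, 3619, 1981, 2869, 3969, 4142, 2809 and 2919 in IL-33 tumors 1 to 8. It was lowest in control 4, then in IL-33 3 and control 7. mt-Nd4 showed the same low tumors, at 584.8 in control 4, 897.1 in IL-33 3 and 1140 in control 7, against 1659 to 2856 in the other 13.

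Measured as the log2 deviation from each gene's median over the 16 tumors, the 13 mRNAs of control 4 ran from -3.33 for mt-Atp8 (23 reads) to 1.84 for mt-Nd6. The genes mt-Nd1, mt-Nd2, mt-Co1, mt-Atp6, mt-Nd4l, mt-Nd4 and mt-Cytb lay between -2.36 and -1.03, and mt-Co2, mt-Nd3 and mt-Nd5 between 0.04 and 0.49. mt-Co3 was at -0.23 by total count and at 0.31 with TMM scaling, so its side depends on the scaling. In IL-33 3 and control 7 the deviation farthest from 0 was that of mt-Nd4l (-1.81 and -1.33), followed by mt-Nd4 in IL-33 3 (-1.24) and mt-Nd5 in control 7 (-0.90), while mt-Nd6 (0.64 and 0.28) and mt-Nd3 (0.45 and 0.47) were above their medians, as in control 4.

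Other tumors had patterns of their own. IL-33 1 was above the median for 13 of 13 mitochondrial mRNAs and the highest tumor for 10 of them, where it was highest for 1.05% of all genes tested. IL-33 7 had mt-Nd2 at 922.6 CPM, which was 3.14% of its mitochondrial reads against 4.79 to 10.2% in the other 15 tumors, and the highest mt-Co3 at 3948 CPM. mt-Nd3 was lowest in IL-33 5 (77.2 CPM) and IL-33 6 (96.4 CPM), against 128.9 to 225.3 CPM in the others. These 2 tumors had the highest sums of hypoxia genes (7995 and 10653 CPM, against 1170 to 6423 CPM), and the part of hypoxia in the mt-Nd3 level was not tested.

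**Figure D2:**
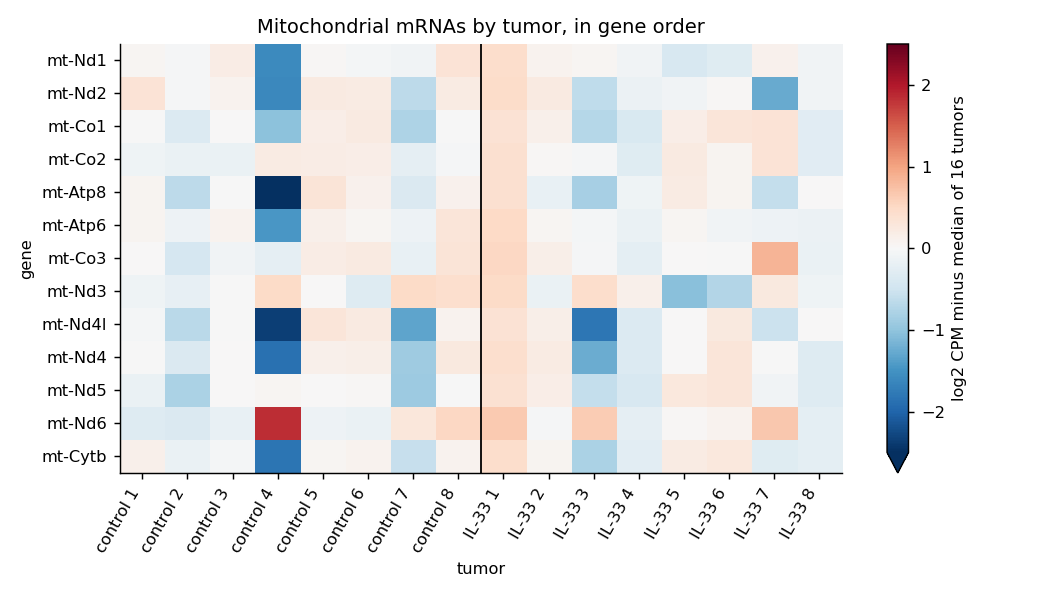
Log2 deviation of the CPM of each of the 13 mitochondrial mRNAs from its median over the 16 tumors, in the order of the genes on the genome; the vertical line divides control from IL-33. Control 4 holds both the lowest values (mt-Atp8 at -3.33, below the color scale) and the highest (mt-Nd6 at 1.84), and IL-33 3 and control 7 show low mt-Nd4l and mt-Nd4.

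Most nuclear members were high in the same 3 tumors. Over the 88 nuclear members with a mean of at least 50 counts, the median log2 deviation was 1.23 in control 4, 0.59 in IL-33 3 and 0.49 in control 7, and between -0.19 and 0.24 in the other 13 tumors. In control 4, 74 of the 88 were above their own median (82 of 88 with TMM scaling), while the median of 11634 other nuclear genes in that tumor was -0.74. Control 4 was the highest tumor for 61 of the 92 nuclear members (66.3%), against 9.82% of all genes tested, and IL-33 3 for 18 (19.6%), against 6.53%. For 25 members (23.8%) control 4 was more than 2 times the next highest tumor, against 2.16% of all genes.

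The shift in control 4 differed between subunits of the same complex. The median deviation of nuclear members there was 1.25 for complex I, -0.12 for complex II, 1.54 for complex III, 1.33 for complex IV and 1.38 for complex V. Within complex III, the short subunit Uqcr11 (445 bases) was at 199.7 CPM, 5.49 times the median of the 14 tumors other than control 4 and IL-33 7. The core protein Uqcrc2 (1896 bases) was at 0.294 times its own median over those tumors. In complex V, Atp5e, the epsilon subunit (421 bases), was at 7.91 times that median and Atp5a1, the catalytic-head alpha subunit (2471 bases), at 0.497 times. Ndufs1, the largest iron-sulfur subunit of complex I (2661 bases), was at 0.385 times, and Sdha, the flavoprotein of complex II (2900 bases), at 0.542 times. Uqcr11, Uqcrc2, Ndufs1 and Atp5a1 were chosen for this comparison after their values were seen.

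Other genes of control 4 were also higher when short and lower when long. Nuclear members are short, with a median principal transcript of 870 bases against 3033 for other genes. As a measure that uses no member, the median deviation of 335 other genes of up to 800 bases was compared with that of 3794 other genes over 4000 bases. Short minus long was 2.63 in control 4, 0.89 in IL-33 3, 0.59 in control 7 and between -0.32 and 0.19 in the other 13 tumors. The same 3 tumors thus stood first, in the same order, for this contrast and for the nuclear members, and were the 3 lowest for the median of the mitochondrial members (-1.46, -0.59 and -0.36). With TMM scaling control 4 and IL-33 3 remained the lowest for the mitochondrial members (-0.85 and -0.59), and control 7 (-0.36) did not follow them.

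Compared at like length, the members of control 4 still lay above other genes. Their median deviation was 1.56 against 1.28 for transcripts of up to 800 bases (40 members), 1.18 against 0.47 for over 800 to 1500 bases (27 members) and 0.07 against -0.62 for over 1500 to 4000 bases (19 members). In IL-33 3 the same values were 0.68 against 0.52, 0.59 against 0.45 and 0.29 against 0.05, and in control 7 they were 0.62 against 0.39, 0.43 against 0.32 and 0.24 against 0.07. For the 2 members over 4000 bases the medians were 1.78 against -1.35 in control 4. They were 0.45 against -0.37 in IL-33 3 and 0.40 against -0.20 in control 7. In control 4 these 2 members, Ndufb2 and Atp5g1, were at 2.04 and 1.52. Their length is that of the principal transcript, the longest where several ranked equally, so it may exceed that of the RNA in the tumors. Mitochondrial ribosomal protein genes, which are nuclear genes as well, had medians of 0.55, 0.49 and 0.38 in control 4, IL-33 3 and control 7. Control 4 also had the highest sum of 67 histone genes (303.8 CPM, against 70.6 to 281.9) and a difference of 1.20 between the fifth of other genes richest in GC and the fifth of genes poorest in it (-0.22 to 0.29 in the others). The part of RNA length, GC content, red cells or tissue makeup in the members' values was not tested.

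**Figure D3:**
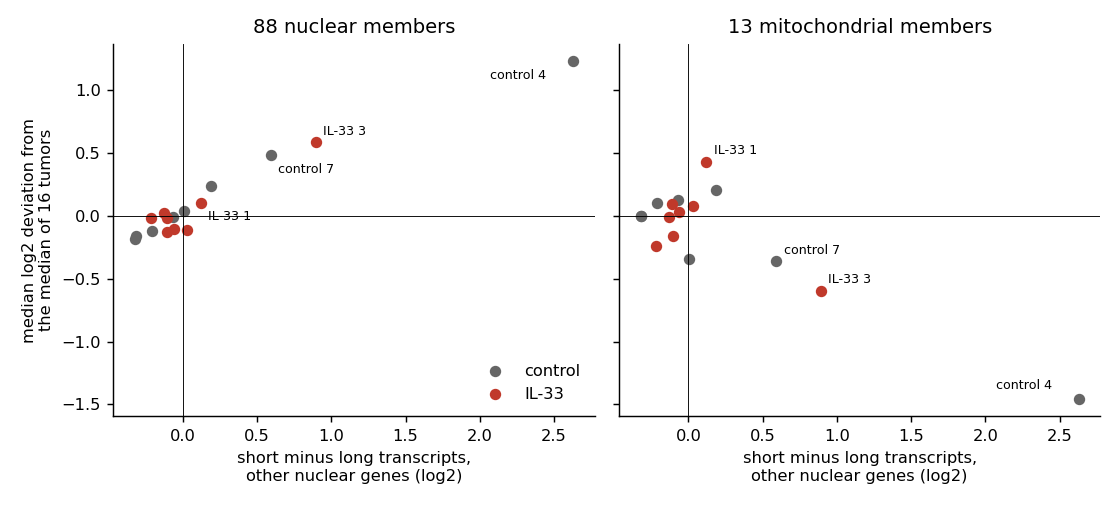
Median log2 deviation of 88 nuclear members (left) and of 13 mitochondrial members (right) in each tumor, against the median of other nuclear genes with transcripts of up to 800 bases minus that of genes over 4000 bases. Control 4 at 2.63, IL-33 3 at 0.89 and control 7 at 0.59 are highest on the left (1.23, 0.59 and 0.49) and lowest on the right (-1.46, -0.59 and -0.36).

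Whether IL-33 treatment changed the members was asked with edgeR's quasi-likelihood test over all 16817 genes. At an adjusted p under 0.05 (Benjamini-Hochberg over all genes) 0 of 105 members were called in this test, as were 0.0% of all genes, and DESeq2 and limma likewise called 0 members. At an unadjusted p under 0.05, 6 members (5.71%) were called, all nuclear and all lower in IL-33, where 11.2% of all genes were called in either direction, 9.99% as higher and 1.17% as lower. The CPM of the groups overlapped for every member, and the groups were apart for 0 members and 0.0% of all genes. All 6 calls were lost without control 4, without IL-33 7 and without both, with 0 members called at an unadjusted p under 0.05 in each of these fits and 9.39, 4.12 and 4.19% of all genes. The sizes differed: without IL-33 7 the 6 log2 fold changes stayed between -1.18 and -0.90, with unadjusted p from 0.0503 to 0.078 by edgeR, and without control 4 they lay between -0.18 and 0.04. Under the other alternatives 0 members and 4.11% of all genes were called by DESeq2, 1 and 5.74% by limma voom with quality weights, 4 and 11.5% with upper-quartile factors, 5 and 11.4% with TMM computed without mitochondrial genes, 4 and 5.0% with filterByExpr, 6 and 11.2% without a filter, and 0 and 1.89% with the replicate number as a block.

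The 6 members were Ndufa3, Ndufa2 and Ndufa13, accessory subunits of complex I, Atp5e and Atp5k, small subunits of complex V, and Ndufa4l2. Ndufa13 was sixth by p and lay outside the rule for named genes. Ndufa3 (ENSMUSG00000035674, chr7:3617373-3620327, plus strand) was at 6.92, 8.77, 6.72, 44.0, 7.70, 9.69, 14.4 and 12.5 CPM in control tumors 1 to 8 and at 8.86, 6.16, 12.95, 8.24, 8.12, 5.95, 11.3 and 7.49 CPM in IL-33 tumors 1 to 8. Control 4 stood above all others and the remaining control tumors overlapped the IL-33 tumors. Its log2 fold change was -1.0 ± 0.45 (SE), with an unadjusted p of 0.041 and an adjusted p of 0.426 by edgeR's quasi-likelihood test with Benjamini-Hochberg adjustment. Without control 4 it was -0.17 (unadjusted p = 0.429 by edgeR).

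Atp5e (ENSMUSG00000016252, chr2:174461072-174464105, minus strand) was at 46.9, 63.7, 52.7, 503.4, 66.6, 58.4, 106.3 and 79.1 CPM in control tumors 1 to 8 and at 79.0, 60.2, 97.3, 56.9, 54.8, 70.7, 75.9 and 63.7 CPM in IL-33 tumors 1 to 8. Control 4 again lay far above a common range, with control 7 and IL-33 3 next. The log2 fold change was -1.20 ± 0.55 (SE; adjusted p = 0.430 by edgeR) with all tumors and 0.04 without control 4. The other 4 had the same tumor at the top: Ndufa2 was at 282.8 CPM in control 4 and at 32.6 to 82.7 CPM in the other 15 tumors, Atp5k at 43.6 CPM and 5.27 to 16.7 CPM, Ndufa13 at 330.6 CPM and 50.03 to 96.4 CPM, and Ndufa4l2 at 390.5 CPM and 18.3 to 110.9 CPM. Ndufa2 went from a log2 fold change of -1.11 to -0.06 without control 4. Atp5k went from -1.03 to -0.16, Ndufa13 from -0.93 to -0.06 and Ndufa4l2 from -1.25 to -0.18 without control 4. In the 16 tumors the adjusted p of the 6 members by edgeR ranged from 0.426 to 0.446.

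The median log2 fold change of the 92 nuclear members was -0.40 with all tumors, with 85 of 92 below 0, against 0.06 over all genes. Without control 4 it was 0.00, with 45 of 92 below 0, and without both tumors 0.03, with 32 of 92 below 0. By complex the nuclear medians without both tumors were 0.04 (I), 0.09 (II), 0.09 (III), 0.03 (IV) and 0.03 (V). For the 13 mitochondrial members the median was 0.06 with all tumors and 0.05 without both, with 0 of 13 at an unadjusted p under 0.05 in either fit. Without both tumors the smallest unadjusted p of any member was 0.138 by edgeR, for Cox7a2l, a factor that joins complexes III and IV, at a log2 fold change of 0.22 ± 0.14 (SE).

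**Figure D4:**
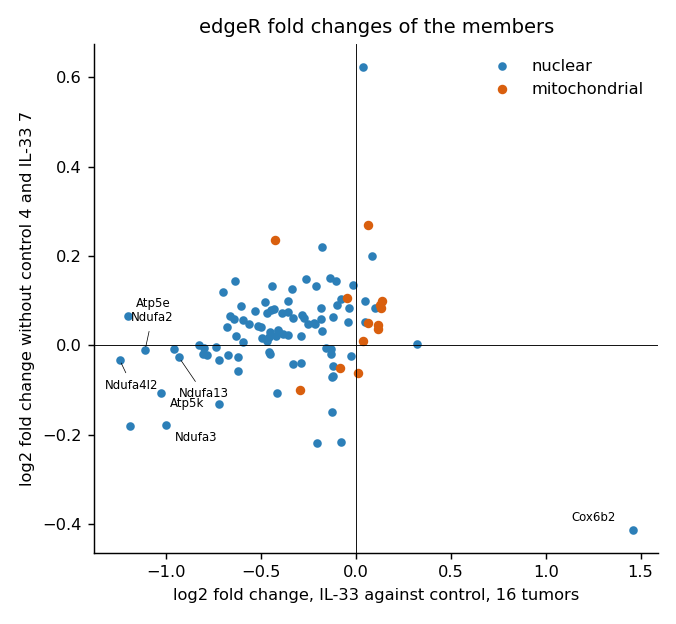
Log2 fold change (IL-33 against control, edgeR) of each of the 105 members with all 16 tumors (horizontal axis) and without control 4 and IL-33 7 (vertical axis), nuclear members in blue and mitochondrial members in orange. The 6 labelled members between -1.25 and -0.93 on the horizontal axis lie between -0.18 and 0.07 on the vertical axis, and Cox6b2 goes from 1.46 to -0.41.

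DESeq2 replaced counts of many members. It treats a count far from its group as an outlier in groups of this size, and it replaced the count of control 4 for 47 of the 105 members, mt-Nd6 among them, and that of IL-33 7 for Cox6b2. The DESeq2 median over the 92 nuclear members was -0.04.

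Per length, the highest nuclear member of each complex was Ndufb9 in complex I (median 127.9 RPKM over the principal transcript), Sdhd in complex II (93.0), Uqcrc1 in complex III (137.6), Cox4i1 in complex IV (519.0) and Atp5b, the catalytic beta subunit, in complex V (1218). The lowest were the assembly factor Ndufaf6 (3.95 RPKM), Sdha (26.8 RPKM), Uqcrfs1, the Rieske iron-sulfur protein (61.5 RPKM), Cox8b (0 RPKM) and Atp5s (1.73 RPKM). With summed exon length in place of the principal transcript, a choice compared after the data were seen, Ndufa8, Uqcr10 and Cox8a were highest in complexes I, III and IV and Uqcrh lowest in complex III. The other 6 places were unchanged.

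Complex II has 4 subunits, all of them nuclear. Sdhb, the iron-sulfur subunit, was at 59.8 to 123.8 CPM in control and at 74.1 to 137.3 CPM in IL-33 tumors. The membrane anchors Sdhc and Sdhd were at 92.2 to 127.5 and 100.9 to 152.6 CPM in control and at 96.7 to 142.6 and 100.1 to 189.1 CPM in IL-33 tumors. For each of these 3 the highest IL-33 tumor was IL-33 3. Sdha was at 42.2 to 112.0 CPM in 15 tumors and at 274.7 CPM in IL-33 7, which has the ovary and oviduct transcripts. The log2 fold changes of the 4 genes ran from -0.14 to 0.32, with 0 called at an unadjusted p under 0.05 by edgeR.

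Several complex IV subunits exist as tissue-specific isoforms, and their levels stood out in single tumors. Cox7b2 (ENSMUSG00000049387, chr5:71442824-71548205, minus strand), a paralog of Cox7b known from testis, was at 8.30, 9.32, 10.03, 16.1, 11.0, 9.93, 10.9 and 11.2 CPM in control tumors 1 to 8 and at 10.7, 8.45, 14.3, 9.41, 8.67, 8.87, 0.342 and 10.6 CPM in IL-33 tumors 1 to 8. The other 15 tumors lay between 8.30 and 16.1 CPM, and IL-33 7 had 6 reads. IL-33 7 was more than 10 times below the lowest other tumor for 58 genes (0.345% of all), and Cox7b2 was the single member among them. Atp5b was also lowest there, at 855.0 CPM against 1831 to 2631 CPM. Cox7b, the common isoform, was at 63.0 CPM in IL-33 7 and at 65.1 CPM or more in the others.

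Cox6b2 (ENSMUSG00000051811, chr7:4751792-4753094, minus strand), the testis isoform of Cox6b1, showed the reverse. It had 87 reads in IL-33 7 (4.96 CPM) and 0 to 7 reads in each of the other 15 tumors, where a count of 0 allows up to 0.124 to 0.212 CPM. IL-33 7 was more than 10 times the highest other tumor for 9.88% of all genes, and Cox6b2 was the single member among them. A list of 8 genes of male germ cells was near 0 in this as in the other tumors (summed at most 0.285 CPM). The oocyte gene Zp3, which is in the ovary list, was at 10.4 CPM in IL-33 7 and at most 0.0494 CPM in the others. The part of ovary, oviduct, fat or other tissue in the Cox6b2, Cox7b2, Sdha and Atp5b levels of IL-33 7 was not tested.

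The muscle isoforms Cox6a2, Cox7a1 and Cox8b were low throughout. Cox6a2 (ENSMUSG00000030785, chr7:128205435-128206387, minus strand) was at 2.96, 2.21, 0.0988, 0.990, 0.424, 0.494, 6.29 and 14.1 CPM in control tumors 1 to 8 and at 9.09, 2.60, 1.64, 3.86, 0.878, 2.16, 0.513 and 4.78 CPM in IL-33 tumors 1 to 8. It was highest in control 8, IL-33 1 and control 7, and these 3 tumors also had the highest sums of 16 skeletal muscle genes (1832, 1065 and 915.5 CPM, against 3.95 to 236.7 CPM). Cox8b had 13, 15 and 7 reads in these tumors and 0 to 4 in the other 13. IL-33 8 and IL-33 4 came next for Cox6a2 with muscle sums of 4.08 and 6.66 CPM. A list of 4 plasmacytoid dendritic cell genes, added after these values were seen, was at 9.10 and 12.1 CPM there and at most 7.55 CPM elsewhere. Cox7a1 had 19 reads in control 4 and 1 to 7 elsewhere. The part of muscle or dendritic cells in Cox6a2 was not tested.

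Ndufa4l2 (ENSMUSG00000040280, chr10:127514967-127517154, plus strand), a paralog of Ndufa4 known to be induced by hypoxia, was at 34.0, 110.9, 84.2, 390.5, 62.9, 72.6, 58.5 and 26.2 CPM in control tumors 1 to 8 and at 53.2, 63.4, 62.0, 33.2, 68.3, 90.1, 18.3 and 50.7 CPM in IL-33 tumors 1 to 8. Control 4 was highest and IL-33 7 lowest. The hypoxia list was at 3500 CPM in control 4, within the range of the others, and lowest in IL-33 7 at 1170 CPM. Cox4i2, the oxygen-responsive isoform of Cox4i1, was at 0.247 to 3.59 CPM, with IL-33 7 (63 reads) and control 4 (47 reads) highest. IL-33 7 was also the highest tumor for the pericyte genes (1476 CPM, against at most 481.6), as it was for 43.0% of all genes tested. Control 4 had a pericyte sum of 97.8 CPM, and control 8, next for pericyte genes, had Cox4i2 at 0.453 CPM. The part of pericytes in Cox4i2 was not tested. The constitutive partners Cox4i1, Cox6a1, Cox6b1, Cox7a2 and Cox8a were at no less than 343.2, 201.5, 89.1, 43.5 and 185.2 CPM in any tumor, with control 4 highest and IL-33 3 next for each. The 3 genes of the ring subunit c of ATP synthase, Atp5g1, Atp5g2 and Atp5g3, had median levels of 25.3, 279.2 and 186.5 RPKM. In CPM, Atp5g1 ranged from 85.7 to 342.6, Atp5g2 from 181.5 to 400.9 and Atp5g3 from 111.0 to 199.5. The low RPKM of Atp5g1 thus depends on the long principal transcript used for it, which may exceed the RNA in the tumors. The RPKM values therefore do not rank Atp5g1 against the other ring genes.

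**Figure D5:**
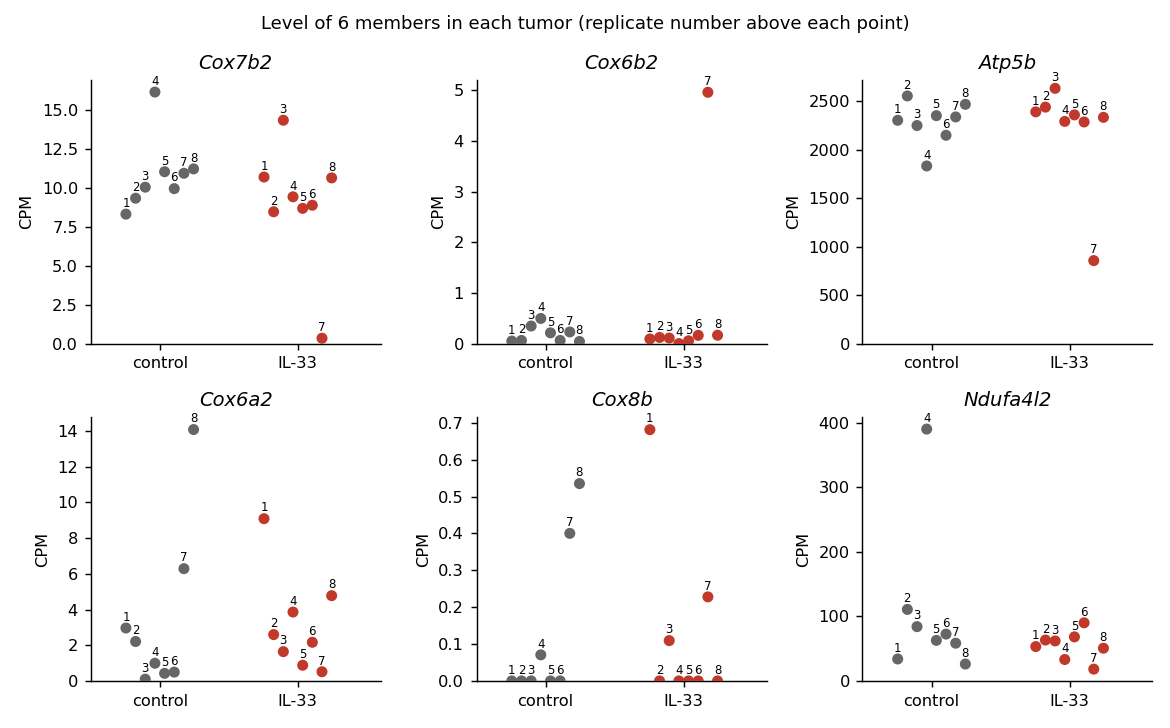
CPM of 6 members in each tumor, with replicate numbers above the points, control in grey and IL-33 in red, on axes that start at 0. IL-33 7 is lowest for Cox7b2 (0.342) and Atp5b (855.0) and highest for Cox6b2 (4.96), control 8, IL-33 1 and control 7 lead Cox6a2 and Cox8b, and control 4 leads Ndufa4l2 (390.5).

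Other genes of mitochondrial biology were read from 8 lists with 216 genes: assembly factors of complex IV, assembly factors of the other complexes, electron carriers, mitochondrial DNA expression, biogenesis regulators, the citric acid cycle, general mitochondrial proteins and mitochondrial ribosomal proteins. Of the 216, 1 was higher and 2 were lower at an unadjusted p under 0.05 by edgeR, where 9.99% of all genes were higher and 1.17% lower, and 0 passed the adjustment. The lower genes were Timmdc1, a complex I assembly factor (log2 fold change -0.43 ± 0.19 SE, unadjusted p = 0.032), and the ribosomal protein gene Mrpl23 (-0.91 ± 0.42 SE, unadjusted p = 0.044), both highest in control 4. Without control 4 they were at -0.26 and -0.12, and neither was called. The higher gene was Ppara, a receptor of fatty acid oxidation, with 0 counts in all 8 control tumors and at most 1.08 CPM, in IL-33 7. The list medians ran from -0.24 (78 mitochondrial ribosomal protein genes) to -0.02 (citric acid cycle and biogenesis regulators) with all tumors, and from -0.07 to 0.04 without control 4 and IL-33 7, where 1 gene (the assembly factor Ecsit) was higher and 0 were lower. The gene with the smallest p in each of the other lists did not pass. With all tumors and then without control 4, the log2 fold change was -0.80 and -0.04 for Cox17, a copper chaperone of complex IV, and -0.56 and -0.13 for Phb, an inner membrane scaffold protein. It was -0.31 and -0.03 for Mdh2, the malate dehydrogenase of the citric acid cycle, -0.37 and -0.05 for Coq4 of ubiquinone synthesis, and -0.19 and -0.16 for Supv3l1, a helicase of mitochondrial RNA.

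Promoters of the nuclear members were searched for motifs of 3 factors known to act on respiratory genes. A RefSeq window of 250 bases before to 50 after the start (GRCm38.p6) matched 74 of the 92 nuclear members, and all motifs were searched on both strands. The NRF1 motif, GCGCA followed by any base and GCGC, was in the window of 19 members (25.7%) and of 9.41% of 12774 genes. The ETS motif of GABPA, CCGGAAG, was in 18 (24.3%) and in 16.7%. The YY1 motif AAGATGGC was in 10 (13.5%) and in 4.41%. A match describes letters and is not a site of binding.

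One window is shown for each motif, with matches in capitals, from members of the group that was highest in control 4. Cox6a1, the constitutive isoform of Cox6a (chr5:115348909-115349208, minus strand), holds 2 NRF1 matches, from positions 89 and 134 of the window, and an ETS match on the reverse strand from position 235. Atp5e (chr2:174464052-174464351, minus strand) holds an ETS match on the reverse strand from position 149, and Ndufa3 (chr7:3617123-3617422, plus strand) a YY1 match from position 273.
Cox6a1: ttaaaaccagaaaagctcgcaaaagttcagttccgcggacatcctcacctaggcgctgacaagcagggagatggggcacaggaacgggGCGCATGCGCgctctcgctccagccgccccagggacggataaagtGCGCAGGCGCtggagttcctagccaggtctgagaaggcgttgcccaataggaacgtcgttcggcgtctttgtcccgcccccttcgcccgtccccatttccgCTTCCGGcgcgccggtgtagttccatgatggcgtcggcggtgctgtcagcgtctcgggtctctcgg
Atp5e: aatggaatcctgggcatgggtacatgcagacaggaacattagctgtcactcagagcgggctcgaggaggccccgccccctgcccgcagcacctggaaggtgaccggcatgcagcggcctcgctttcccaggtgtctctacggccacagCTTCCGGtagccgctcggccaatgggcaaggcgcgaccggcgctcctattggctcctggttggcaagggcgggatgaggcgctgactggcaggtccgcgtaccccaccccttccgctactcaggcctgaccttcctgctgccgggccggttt
Ndufa3: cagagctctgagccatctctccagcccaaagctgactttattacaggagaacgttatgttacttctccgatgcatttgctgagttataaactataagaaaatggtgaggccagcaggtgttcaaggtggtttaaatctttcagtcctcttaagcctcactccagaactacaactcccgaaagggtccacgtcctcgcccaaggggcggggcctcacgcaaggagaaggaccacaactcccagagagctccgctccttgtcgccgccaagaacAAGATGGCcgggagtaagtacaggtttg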

How the data were processed

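The authors sequenced poly(A)-selected RNA of 16 tumors and deposited raw read counts per gene. HISAT2, featureCounts and the build mm10 are named in the submitters' processing notes. Their versions, the annotation release and the use of strand and of multi-mapping reads are not given in the sources used here, so members with processed pseudogenes or copies of mitochondrial DNA in the nucleus are uncertain where reads could be split.

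Genes were named by GENCODE M21 (GRCm38). 43 of 22298 rows had no matching entry. The counts were tested with edgeR 4.0.16 (TMM, quasi-likelihood) in R 4.3.3 over the 16817 genes that reached 10 counts summed over the tumors. On simulated data for this comparison (16459 genes) it recovered 54 of 100 genes changed 2-fold and 92 of 100 changed 4-fold, with 7 false calls. Counts were drawn independently for each gene and tumor, and only genes above a minimum level were changed. Members that move together in single tumors, and tumors that share an animal, lie outside this setting. DESeq2 1.42.0 and limma 3.58.1 were alternatives, besides other scalings and filters, a replicate block and fits without control 4, IL-33 7 or both. Levels are CPM of the total count, and RPKM divides by the principal transcript, a choice made after values were seen. Deviations use log2(CPM + 0.5) for genes with a mean of at least 50 counts. Each tumor entered as 1 sample, since no label ties tumors to mice, so p-values measure the spread between tumors and not between animals. The smallest chi-square per degree of freedom between replicates of a group was 9.12, and none was a repeat of another.

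Named were the 13 mitochondrial members, up to 5 nuclear members a direction at unadjusted p under 0.05, isoform genes, the extremes of each complex, Sdha to Sdhd and up to 3 genes of each list. The members and lists were chosen with earlier results of these data known.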

Additional observations from a re-analysis of the deposited data

Results flagged for a closer look

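In each group of 8 tumors the gap between the highest or lowest tumor and its neighbour was compared with the whole range by Dixon's ratio at its critical value for 95%. Over 98 groups of values (46 named members and 3 summary measures) 46 extremes were past it, where chance gives about 1 in 20 groups. Genes that move together are not separate evidence.

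Control 4 gave 21 of them. It was the highest control tumor for the nuclear share (1.85%) and for Atp5e (503.4 CPM), Atp5g1 (342.6 CPM), Atp5g2 (400.9 CPM), Atp5k (43.6 CPM), Cox4i1 (1167 CPM), Cox6a1 (1095 CPM), Cox6b1 (351.9 CPM), Cox7a1 (1.34 CPM), Cox7a2 (201.5 CPM), Cox7a2l (457.2 CPM), Cox7b2 (16.1 CPM), Cox8a (438.1 CPM), Ndufa13 (330.6 CPM), Ndufa2 (282.8 CPM), Ndufa3 (44 CPM), Ndufa4l2 (390.5 CPM), Ndufb9 (226.6 CPM) and mt-Nd6 (629.6 CPM). It was the lowest control tumor for mt-Atp6 (981.1 CPM) and mt-Nd1 (525.2 CPM).

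IL-33 3 gave 16. It was the highest IL-33 tumor for the nuclear share (1.34%) and the lowest for the log2 ratio of mitochondrial to nuclear reads (0.56). It was also the highest for Atp5g2 (274.6 CPM), Atp5k (16 CPM), Cox4i1 (631.0 CPM), Cox6a1 (374.9 CPM), Cox6b1 (177.1 CPM), Cox7a2 (103.4 CPM), Cox7b (118.6 CPM), Cox8a (305.0 CPM), Ndufaf6 (9.45 CPM), Ndufb9 (143.7 CPM), Sdhb (137.3 CPM), Sdhc (142.6 CPM), Sdhd (189.1 CPM) and Uqcrfs1 (124.9 CPM).

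IL-33 7 gave 6. It was the lowest IL-33 tumor for Atp5b (855.0 CPM) and Cox7b2 (0.342 CPM), and the highest for Atp5s (6.38 CPM), Cox4i2 (3.59 CPM), Cox6b2 (4.96 CPM) and Sdha (274.7 CPM).

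IL-33 1 gave 2, as the highest IL-33 tumor for Cox8b (0.682 CPM) and mt-Atp6 (3796 CPM). Control 8 gave 1, as the highest control tumor for Cox6a2 (14.1 CPM). The transcript length contrast of control 4 and IL-33 3 stands beside these values in the report. So do the ovary, oviduct, fat and fibroblast genes and the liver list sum of IL-33 7, and the muscle genes of IL-33 1 and control 8. Their part was not tested.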

How the results depend on the processing

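Of 6 members at an unadjusted p under 0.05, 4 remained in number with upper-quartile factors, 5 with TMM computed without mitochondrial genes, 4 with filterByExpr and 6 without a filter. The count was 0 with DESeq2, 1 (Cox4i2, higher in IL-33) with limma voom and quality weights, 0 with the replicate block, and 0 without control 4, without IL-33 7 and without both. Members at an adjusted p under 0.05 numbered 0 under each of these alternatives. Of the 60 values of the 6 genes under the 10 alternatives, 19 kept direction and unadjusted p under 0.05, 36 kept the direction only and 5 turned: Atp5e to 0.054 with DESeq2, 0.045 with limma voom, 0.04 without control 4 and 0.066 without both, and Ndufa2 to 0.018 with limma voom. Without IL-33 7 Atp5e stayed at -1.18. For DESeq2 the replaced counts of control 4 are part of the alternative's construction, and for the others the cause was not tested. The median of the nuclear members moved from -0.40 to -0.04 with DESeq2, -0.19 with the replicate block, 0.01 with limma voom, 0.00 without control 4 and 0.03 without both, and lay between -0.42 and -0.37 under the other alternatives. The 3 differences between group means of the log2 shares and of the log2 ratio moved by less than 1 SD under the alternatives run. Each was itself below 1 SD with all tumors, so a difference that vanished would also stay within it. The differences ran from 0.02 to 0.14 for the mitochondrial share, -0.22 to 0.02 for the nuclear share and 0.00 to 0.26 for the log2 ratio (the mean of log2 CPM over members gave 0.25). Of the mitochondrial lists 3 genes passed with all tumors and 1 without both.

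The replicate numbers did not pair the tumors: the correlation of same-numbered deviations ran from -0.46 to 0.38, 4 of 8 were over 0.1 and 2 of 8 tumors correlated best with their own number. Genes with few reads, such as Cox8b and Cox7a1, are limited by counting error, and a change in them was not detectable at this depth.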
